A study of Mus musculus with 14 samples.

Results

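The 4 genes described here, Gp1ba, Gp1bb, Gp9 and Gp5, encode the subunits of the GPIb-IX-V complex, the platelet receptor for von Willebrand factor. They were taken by name, through the RefSeq identifier of each array probe, and are 4 of the 11497 genes with a probe that could be tested. Blood RNA of 14 mice was measured on 1-colour Agilent arrays, 1 array per mouse. The 8 SS mice had lived in an adverse, hostile social environment in the third postnatal week, and the 6 SI mice were socially isolated as juveniles. All 14 mice were conditioned with cocaine at 5 mg/kg, a dose below the threshold for place preference, then went through extinction and withdrawal, and were bled 24 hours later. Every SS and SI mouse had therefore received cocaine, and no unstressed or cocaine-free group was analysed here. Neither strain nor age is given in the sources used here. There were 4 SS labelled males, 4 SI labelled males, 4 SS labelled females and 2 SI labelled females. Mice are numbered separately, but SS labelled males 1 and 01b share a digit, and the labels do not say whether 01b is another sample of mouse 1.

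The receptor is found on platelets and on their parent cells, the megakaryocytes. GPIbα, from Gp1ba, carries the binding site for von Willebrand factor and catches platelets from flowing blood at a damaged vessel wall. GPIbβ, from Gp1bb, is joined to GPIbα by disulfide bonds, GPIX, from Gp9, holds the complex together at the surface, and GPV, from Gp5, is more loosely bound and is cut by thrombin. Loss of GPIbα, GPIbβ or GPIX causes Bernard-Soulier syndrome in humans, a bleeding disorder with giant platelets, whereas loss of GPV does not. Platelets have no nucleus and keep RNA made in the megakaryocyte.

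Some features of the arrays bear on every value below. The sample is labelled as mononuclear cells but was prepared by lysing red cells, and platelet, neutrophil and red cell markers were all detected. Labelled males filled 1 slide and labelled females the other, which makes slide and sex label 1 and the same factor here. The Y-linked genes Eif2s3y and Ddx3y were well above background on 6 of 6 labelled female arrays and 0 of 8 labelled male arrays, and Xist on 0 of 6 and 5 of 8, which goes against the sex labels. They are used only as labels of the 2 slides. On each slide the SS arrays filled other columns than the SI arrays, so group and column cannot be told apart. Between 34.8% and 47.7% of spots were well above background on an array, and the lowest correlation between 2 arrays of a group was 0.833, between SI labelled males 4 and 7.

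Factors known to drive megakaryocyte genes bind GATA and ETS words. Whether such words bear on the differences below was not tested. The sequences just before the annotated start of each gene are shown as a description. They come from RefSeq on build GRCm38.p6, which held all 4 genes, run 5′ to 3′ on the strand of the gene, and have in capitals each GATA word (GATA with A or T before it and A or G after it) and each ETS word (GGAAG with A or C before it) on either strand. Motifs of different kinds were searched independently and none of those shown overlap.
Gp1ba, chr11:70639002-70639121, plus strand: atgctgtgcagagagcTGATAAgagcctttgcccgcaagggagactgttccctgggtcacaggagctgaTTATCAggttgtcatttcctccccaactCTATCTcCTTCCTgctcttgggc
Gp1bb, chr16:18622408-18622437, minus strand: gcacctccccgcCTATCAtaagggaacaag
Gp9, chr6:87777950-87778069, plus strand: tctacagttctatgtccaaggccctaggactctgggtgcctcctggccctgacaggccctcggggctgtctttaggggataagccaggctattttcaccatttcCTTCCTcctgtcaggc
Gp5, chr16:30310782-30310901, minus strand: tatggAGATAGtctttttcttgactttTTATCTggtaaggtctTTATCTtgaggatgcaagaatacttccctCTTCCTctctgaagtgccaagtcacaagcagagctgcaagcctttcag
In the 250 bases before the start, GATA words were found 3 times for Gp1ba, 3 times for Gp5, 1 time for Gp1bb and 0 times for Gp9. An ETS word was found 1 time for each of the 4 genes, at bases 16 to 11 before the start in both Gp1ba and Gp9. The RUNX word TGTGGT was found 1 time, for Gp9, and the NF-E2 word TGACTCA for none of the 4. Among the 32851 promoters of the RefSeq table, 26.5% held a GATA word in the same window, 39.2% an ETS word, 14.1% the RUNX word and 4.46% the NF-E2 word. The Gp1bb window lies inside the neighbouring gene Septin5 and only 30 bases of it are printed. The words were chosen with these windows in view, and a match is a description of the letters and not of a bound site.

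All 4 receptor genes were higher in SS than in SI mice over all mice, by 2.71 to 3.14-fold. Taken by slide, all 4 passed the test in labelled females and none in labelled males. Signals are given as scaled log2 signal, in which 0 is the 75th percentile of the probes detected on every array and 1 unit is a doubling. A level of 1 probe is not set against that of another, since probes differ in how well they bind. In bulk blood RNA, fewer platelets and less RNA per platelet cannot be told apart.

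Gp1ba (NM_010326), the ligand-binding subunit, had a scaled log2 signal of 2.76, 2.29, 1.93 and 2.04 in SS labelled males 1, 2, 3 and 01b, against -0.55, 1.66, 1.28 and 0.95 in SI labelled males 6, 4, 7 and 5. It had 2.23, 2.35, 2.82 and 2.32 in SS labelled females 22, 20, 23 and 21, against 0.50 and 0.38 in SI labelled females 27 and 28. Every SS mouse was above every SI mouse of its slide, and SI labelled male 6 was the lowest of all 14. Gp1ba differed by 1.65 (SE 0.30) on the log2 scale over all mice, 3.14-fold, with a 95% interval from 1.00 to 2.30 and a limma adjusted p of 0.00489.

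Gp1bb is read by 3 probes. The brightest (NM_001001999), the one used for the gene, had a scaled log2 signal of 3.79, 3.47, 2.85 and 3.20 in the SS labelled males, against 0.69, 2.94, 2.03 and 1.88 in the SI labelled males, in the same order of mice. It had 2.97, 2.85, 3.23 and 2.86 in the SS labelled females, against 1.24 and 1.11 in the SI labelled females. SI labelled male 4 lay above SS labelled male 3, and no other SI mouse reached an SS mouse of its slide. The difference over all mice was 1.58 (SE 0.28), 3.00-fold, with a 95% interval from 0.97 to 2.19 and a limma adjusted p of 0.00477.

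Gp9 (NM_018762), whose product stabilises the complex, had a scaled log2 signal of 6.62, 6.39, 5.71 and 5.91 in the SS labelled males, against 3.76, 5.82, 5.22 and 4.86 in the SI labelled males. It had 5.90, 6.14, 6.45 and 6.24 in the SS labelled females, against 4.59 and 4.32 in the SI labelled females. Again only SI labelled male 4 lay above SS labelled male 3, and the labelled females did not overlap. Gp9 had the smallest estimate of the 4, 1.44 (SE 0.28) over all mice, 2.71-fold, with a 95% interval from 0.83 to 2.04 and a limma adjusted p of 0.00574.

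Gp5 (NM_008148), the thrombin-cut subunit, had a scaled log2 signal of 3.43, 3.00, 2.47 and 2.77 in the SS labelled males, against 0.17, 2.36, 1.59 and 1.62 in the SI labelled males. It had 2.63, 2.44, 3.04 and 2.50 in the SS labelled females, against 0.81 and 0.73 in the SI labelled females. The groups did not overlap on either slide. Gp5 differed by 1.64 (SE 0.29) over all mice, 3.12-fold, with a 95% interval from 1.02 to 2.26 and a limma adjusted p of 0.00474.

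**Figure D1:**
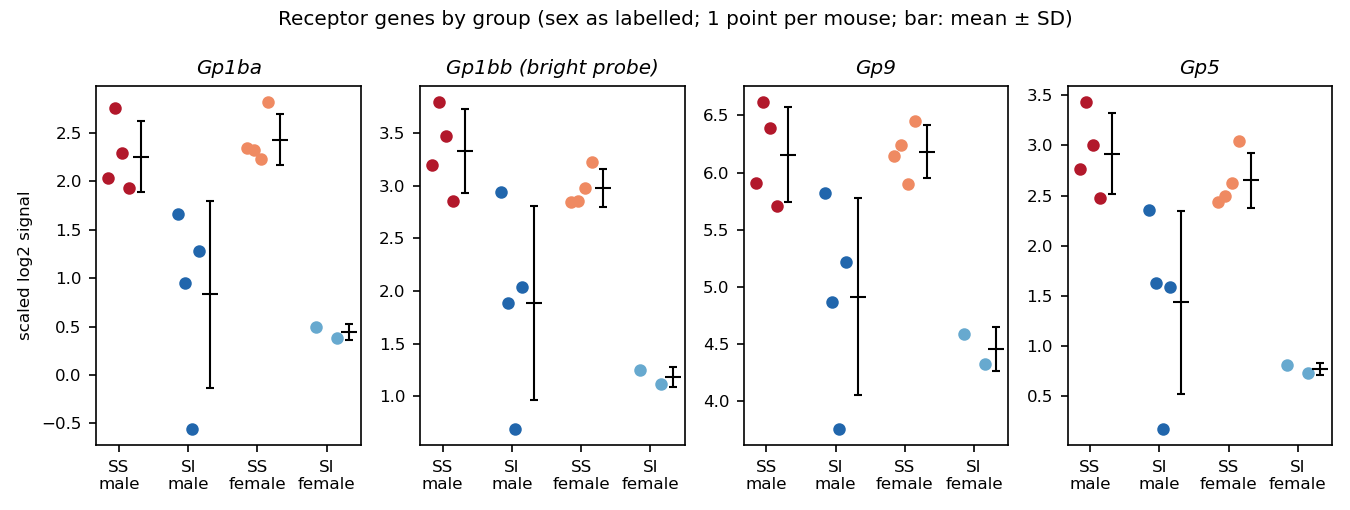
Scaled log2 signal (vertical axis) of Gp1ba, Gp1bb (brightest probe), Gp9 and Gp5 in the 4 groups, 1 point per mouse, with the mean ± SD beside each group and sex as labelled. Each SS group sits left of its SI group, the SI labelled males are spread most widely, and SI labelled male 4 reaches into the SS range for Gp1bb and Gp9.

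Of the 4 genes, 4 passed the limma test over all mice as higher in SS, where 7.98% of the 24033 probes tested passed, 7.41% as higher and 0.57% as lower. The number of probes with a larger rise was 96 for Gp1ba, 101 for Gp5, 160 for Gp1bb and 360 for Gp9. An exact permutation test of the SS and SI labels within slides, two-sided over 1050 relabellings, gave p = 0.000952 for Gp1ba and Gp5, the smallest it can give, and p = 0.00190 for Gp1bb and Gp9. Without mouse 1 or without mouse 01b all 4 still passed, at 1.37 to 1.71 with limma adjusted p-values from 0.00740 to 0.0176. Only Gp1ba and Gp5 had every SS mouse above every SI mouse on both slides, as had 5.11% of all tested probes. Those 2 genes did so among the labelled males, as 8.4% of probes did, and all 4 among the labelled females, as 16.6% did.

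In the labelled males the log2 difference was 1.42 for Gp1ba, 1.44 for Gp1bb, 1.24 for Gp9 and 1.48 for Gp5, with limma adjusted p-values from 0.0850 to 0.0881. None of the 4 passed there, and neither did any other probe (0% called, with 5706 of 24033 at an unadjusted p under 0.05). Without SI labelled male 4, whose receptor values were the highest of its group, the 4 differences were 1.54 to 1.79 with limma adjusted p-values from 0.0143 to 0.0144. This was the only mouse whose absence brought the call. Without SI labelled male 6, the lowest of its group, they were 0.86 to 1.06 with limma adjusted p-values from 0.238 to 0.247. The exact permutation test within this slide gave p = 0.0286 for Gp1ba and Gp5, the smallest possible with 4 against 4, and p = 0.0571 for Gp1bb and Gp9.

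In the labelled females the log2 difference was 1.99 for Gp1ba, 1.80 for Gp1bb, 1.73 for Gp9 and 1.88 for Gp5. All 4 passed, with limma adjusted p-values of 0.0383, 0.0465, 0.0491 and 0.0413, where 4% of the probes passed, 3.19% as higher and 0.816% as lower. These calls rest on 2 SI mice and lie close to the threshold, and they were lost under several other settings. The exact permutation test could reach no p below 0.0667 with 4 against 2, and gave that value for each gene. The difference between the slides, labelled females minus labelled males, was 0.57 for Gp1ba, 0.36 for Gp1bb, 0.49 for Gp9 and 0.40 for Gp5, with limma adjusted p-values from 0.679 to 0.775. No gene passed that test, which called 0.0458% of probes. The 95% interval for Gp1ba ran from -0.76 to 1.90.

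Across the 4 groups, Gp1ba averaged 2.43 ± 0.26 in SS labelled females (SD, n = 4), 2.26 ± 0.37 in SS labelled males (n = 4), 0.83 ± 0.97 in SI labelled males (n = 4) and 0.44 ± 0.08 in SI labelled females (n = 2). Gp9 had the same order, with 6.18 ± 0.23, 6.16 ± 0.42, 4.91 ± 0.87 and 4.45 ± 0.19. For Gp1bb the SS labelled males came first with 3.33 ± 0.40, before the SS labelled females with 2.98 ± 0.18, the SI labelled males with 1.89 ± 0.92 and the SI labelled females with 1.18 ± 0.09. Gp5 followed that order, with 2.92 ± 0.41, 2.65 ± 0.27, 1.44 ± 0.91 and 0.77 ± 0.06. For each of the 4 genes the SS groups of the slides overlapped, and both SI labelled females lay within the range of the SI labelled males.

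A second Gp1bb probe, to NM_010327, averaged -0.64 ± 0.55 in SS against -2.16 ± 0.89 in SI labelled males (n = 4 each), and -1.27 ± 0.29 in SS (n = 4) against -3.08 ± 0.17 in SI labelled females (n = 2). Its difference was 1.64 over all mice, with a limma adjusted p of 0.00489. The dimmest probe, also to NM_001001999, was well above background on all 8 SS arrays but on 1 of 4 SI labelled male arrays and 0 of 2 SI labelled female arrays. It entered the test only through the SS arrays, so no difference or p is given for it.

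Septin5, a septin gene, overlaps Gp1bb on chromosome 16 in the RefSeq table, and its probe is therefore given beside those of Gp1bb. Its probe averaged -4.37 ± 0.39 in SS against -5.22 ± 0.72 in SI labelled males (n = 4 each), and -5.04 ± 0.29 in SS (n = 4) against -4.36 ± 0.91 in SI labelled females (n = 2). The difference over all mice was 0.23 (SE 0.34; limma adjusted p = 0.728). It averages opposite estimates, 0.84 in labelled males (limma adjusted p = 0.195) and -0.69 in labelled females (0.532). The Septin5 probe was dim, though well above background on all 14 arrays. Among the other nearest genes, Rab43 beside Gp9 fell by 0.52 (SE 0.14; limma adjusted p = 0.0374), while Slc25a11 beside Gp1ba differed by -0.50 (0.112) and Atp13a3 beside Gp5 by 0.15 (0.655). The neighbours Chrne, Tbx1, Cldn5, Efcc1 and Lrrc15 were too dim to be tested.

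**Figure D2:**
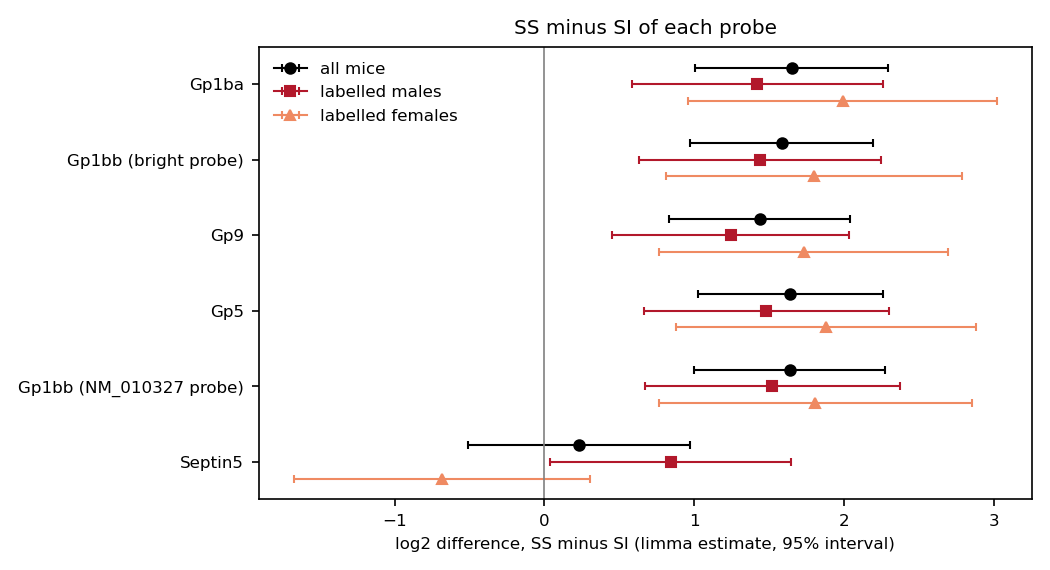
Log2 difference, SS minus SI, with its 95% limma interval (horizontal axis) for each receptor probe detected in all groups and for Septin5, over all mice and on each slide. All 5 receptor probes lie between 1.24 and 1.99 in each comparison, while Septin5 lies at 0.23 over all mice with an interval across 0. By slide, Septin5 lies at 0.84 in labelled males and -0.69 in labelled females.

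With the spread pooled over the 4 groups, the 4 genes followed each other closely from mouse to mouse. The pooled within-group SD of a member's log2 signal was 0.54 to 0.59, while that of the difference between 2 members on the same array was 0.10 for Gp1bb minus Gp5 and at most 0.17. Members spread most in the SI labelled males, with SDs of 0.87 to 0.97, against 0.18 to 0.27 in SS labelled females. In the latter, Gp9 minus Gp5 ran from 3.27 to 3.74, beside 5.90 to 6.45 for Gp9 itself. Close tracking was therefore not seen for every pair in every group. Scaling each array by 1 factor cannot move SS minus SI in such a difference, but other processing can. For Gp1ba minus Gp9 it was 0.30 with quantile normalization and 0.085 in the deposited log2 table. With the main scaling it was 0.21 (exact permutation p = 0.0248, adjusted p = 0.149 over the 6 pairs). It was -0.20 for Gp9 minus Gp5 (exact p = 0.0514, adjusted p = 0.154) and 0.15 for Gp1bb minus Gp9 (exact p = 0.0876, adjusted p = 0.175). The remaining pairs gave 0.07 for Gp1ba minus Gp1bb, 0.01 for Gp1ba minus Gp5 and -0.06 for Gp1bb minus Gp5, with exact adjusted p-values from 0.416 to 0.933. No pair passed, so the smaller rise of Gp9 was not separated from those of the other members. The Gp1ba minus Gp1bb difference averaged -1.07 in SS and -1.05 in SI labelled males, but -0.55 in SS and -0.74 in SI labelled females, so it lay apart between the slides more than between SS and SI. That slide difference was not tested.

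**Figure D3:**
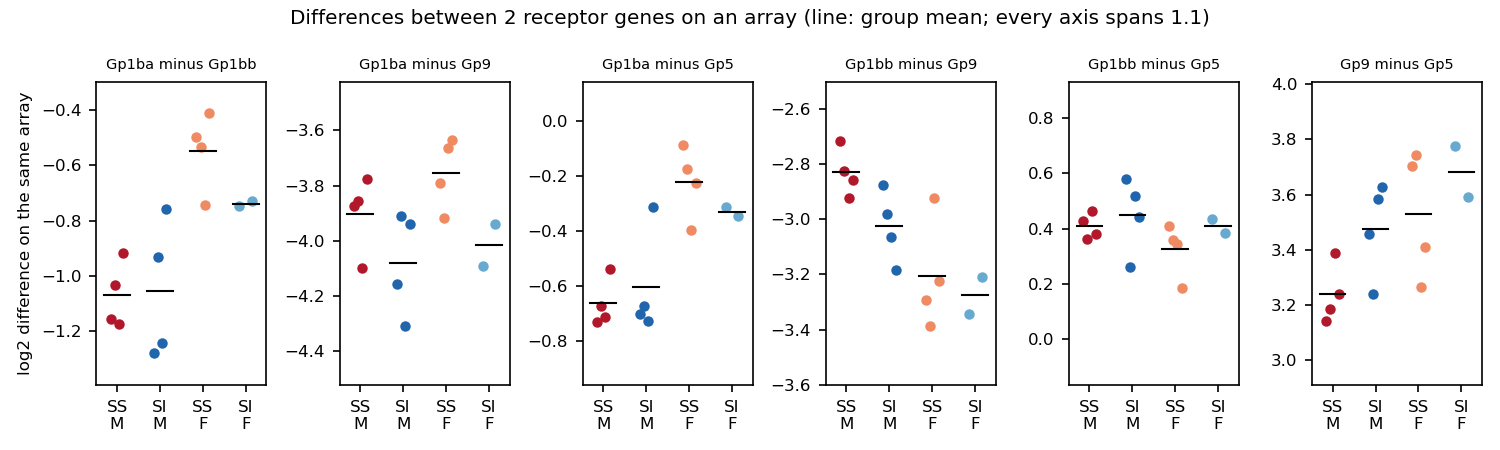
Log2 difference between 2 receptor genes on the same array (vertical axes, each spanning 1.1) for the 6 pairs in the 4 groups, with 1 point per mouse and a line at each group mean. The SS and SI means of a slide differ by at most 0.26 in every pair.

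The receptor genes were next set against 20 other platelet markers, among them Pf4 and Ppbp, which encode granule chemokines, and Tubb1, a platelet tubulin. The mean level of these markers was 4.57 ± 0.35 in SS against 3.30 ± 0.80 in SI labelled males (n = 4 each), and 4.04 ± 0.14 in SS (n = 4) against 2.38 ± 0.22 in SI labelled females (n = 2). It ranged from 4.14 to 4.96 in SS and from 2.18 to 4.09 in SI labelled males, and from 3.94 to 4.25 in SS and from 2.22 to 2.53 in SI labelled females. Of the 20 markers 19 rose over all mice, where 7.41% of all tested probes did. The median of the markers was 1.53, beside a median of 1.61 for the receptor genes and -0.04 for all tested probes.

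After the mean of these markers was subtracted on each array, SS minus SI was 0.22 for Gp1ba, 0.16 for Gp1bb, 0.01 for Gp9 and 0.22 for Gp5. These values depend on the markers chosen and on the source of the signal. They were 0.42, 0.35, 0.20 and 0.41 against the other platelet receptors described below, and 0.13, 0.02, 0.05 and 0.07 in the deposited log2 table, with limma adjusted p-values from 0.0830 to 0.910. That list of receptors holds 16 genes that rose, but also Cd36 with -1.01 and Tbxa2r with -0.33, which lower its mean difference. In limma 0 of the 4 passed, with adjusted p-values from 0.365 to 0.963, while 86.1% of all probes passed, 86% as lower and 0.0291% as higher. The marker mean was itself higher in SS, so subtracting it lowers most probes, and that share is no yardstick for the 4 genes. The widest interval, for Gp1ba, ran from -0.27 to 0.71. An exact permutation test within slides, added after the limma result had been seen, gave p = 0.0343 for Gp1ba, 0.0314 for Gp1bb, 0.890 for Gp9 and 0.00381 for Gp5, unadjusted. The within-group SD of Gp5 was 0.12 after the subtraction and 0.57 before it. Because limma draws each spread toward that of all probes, its SE for Gp5 was 0.23, above that SD. The limma p-values therefore cannot show that the 4 genes matched the markers.

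For Gp5, the member with the smallest exact p, the signal relative to the 20 markers was -1.53, -1.72, -1.67 and -1.68 in SS labelled males 1, 2, 3 and 01b, against -2.01, -1.74, -1.86 and -1.83 in SI labelled males 6, 4, 7 and 5. It was -1.39, -1.51, -1.21 and -1.46 in SS labelled females 22, 20, 23 and 21, against -1.72 and -1.49 in SI labelled females 27 and 28. The labelled males did not overlap, and SI labelled female 28 lay above SS labelled female 20. These differences are small beside the 1.64 that Gp5 differed by before the subtraction.

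**Figure D4:**
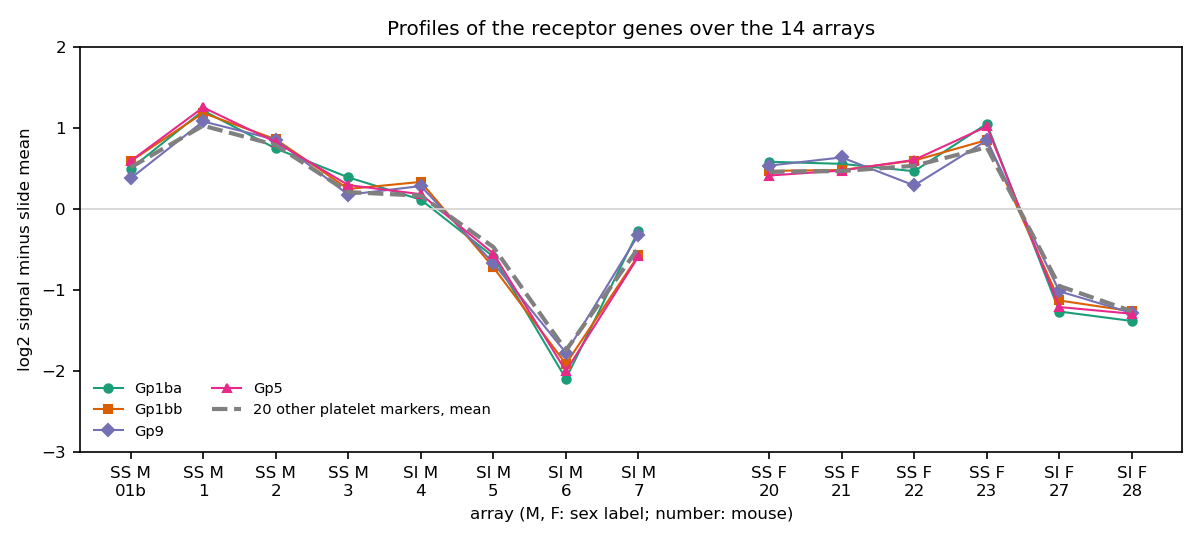
Log2 signal minus the mean of the slide (vertical axis) over the 14 arrays for Gp1ba, Gp1bb, Gp9 and Gp5, with the mean of 20 other platelet markers as a dashed line. The 5 lines run together on both slides, lowest in SI labelled male 6 and, on the second slide, in the SI labelled females.

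Likeness of profile was measured as the root mean square log2 difference over the 14 arrays after the slide means were removed, among 8156 genes. Nearest to Gp1ba were Maged2 (0.0771), Ttc9 (0.109), Ankrd35 (0.109), Phgr1 (0.113) and Gucy1b1 (0.117), a subunit of the nitric oxide receptor guanylate cyclase. Nearest to Gp1bb were Treml1 (0.0789), a platelet granule receptor, its fellow subunit Gp5 (0.0874), Mpig6b (0.0954), an inhibitory platelet receptor, Parvb (0.0973) and Ly6g6c (0.0985). Among those nearest to Gp5 were Gp1bb (0.0874), the serotonin transporter Slc6a4 (0.0891), Clic4 (0.100) and Parvb (0.112). Nearest to Gp9 were Cavin1 (0.0893), Rbpms2 (0.102), Tmem40 (0.102), Nck2 (0.103) and Ecm1 (0.112). The median over all genes was 1.04 to 1.13, and 0.63 to 0.65 with group means removed instead. Profiles without the slide means still hold the SS minus SI difference, which was 1.37 to 1.74 in the nearest genes. These genes are also the closest of all those compared. Gp5 was the member nearest to Gp1ba, at rank 8 (0.123), with Gp1bb at rank 29 and Gp9 at rank 40. For Gp9 the fellow members Gp1bb, Gp1ba and Gp5 came at ranks 24, 59 and 80. Many other genes thus lay nearer to a subunit than some of its fellow subunits did. As a description, the values share the arrays and the scaling, and with group means removed instead, 3, 4, 4 and 2 of the 5 nearest genes of Gp1ba, Gp1bb, Gp5 and Gp9 stayed the same.

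Among ligands and partners of the receptor on the surface, 2 of the 5 that could be tested rose over all mice and 0 fell. Of all tested probes 7.41% rose and 0.57% fell. Vwf, von Willebrand factor itself, differed by 1.48 (SE 0.27; limma adjusted p = 0.00501), and Thbs1, thrombospondin-1, by 1.42 (SE 0.27; 0.00516). Selp, P-selectin, had 0.74 (0.118) and Itgam, a chain of the leukocyte integrin Mac-1, 0.71 (0.172), while its partner chain Itgb2 had -0.54 (0.602). By slide, Itgb2 had 0.48 in labelled males and -2.06 in labelled females, where the SI mice had an SD of 2.83. F2, F11, F12 and Kng1, made mainly in liver, were too dim to be tested. The median of the list was 0.74.

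None of the 5 genes tied to proteolysis of the receptor or its ligand passed, where 7.98% of all tested probes did, and their median was -0.32. Adam10, a sheddase of platelet receptors, had 0.53 (limma adjusted p = 0.0630). Capn1, a calpain subunit, had -0.41 (0.205), and Rhbdf2, which controls Adam17, had -0.32 (0.447). Adamts13, which cuts von Willebrand factor, had -0.59 (0.694) with an SE of 0.78. Adam17, the main sheddase of GPIbα, had -0.15 (0.780).

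Of the 21 tested genes whose products bind the receptor or signal from it, 7 rose and 0 fell, with a median of 0.29. Of all tested probes 7.41% rose. The adaptor Lat differed by 1.24 (SE 0.19; limma adjusted p = 0.00474), Ywhaz, the 14-3-3 zeta protein that binds the tail of GPIbα, by 0.97 (SE 0.18; 0.00513), the GTPase Rac1 by 0.91 (SE 0.17; 0.00521) and the kinase Prkg1 by 1.22 (SE 0.26; 0.00935). Pik3cb, Flna and Ywhae, with 0.77, 0.69 and 0.54, completed the 7. Flna, filamin A, ties the receptor to the actin skeleton. Fcer1g with -0.08 and Syk with 0.12, both also used by leukocytes, did not pass.

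Of 18 tested other surface receptors of platelets, 16 rose and 1 fell, with a median of 1.43, where 7.41% of all tested probes rose. The collagen receptor chain Itga2 differed by 1.50 (SE 0.25), the podoplanin receptor Clec1b by 1.57 (SE 0.26), Slamf1 by 1.60 (SE 0.27) and the ADP receptor P2ry12 by 1.68 (SE 0.29), each with a limma adjusted p of 0.00474. Cd36, a scavenger receptor of platelets and monocytes, fell by 1.01 (SE 0.28; 0.0377), and Tbxa2r had -0.33 (0.617).

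Of 18 transcription factors of the megakaryocyte lineage, 8 rose and 0 fell, with a median of 0.36, where 7.41% of all tested probes rose. Gata2 differed by 1.69 (SE 0.28), Gata1 by 1.47 (SE 0.26), Gfi1b by 1.54 (SE 0.27) and Fli1, an ETS factor, by 0.87 (SE 0.15), each with a limma adjusted p of 0.00474. Meis1, Nfe2, Tal1 and Runx1 had 1.27, 1.04, 1.12 and 0.88. Zfpm1, the GATA partner FOG-1, had 0.28 and Ets1 0.04, and neither passed. In the labelled females alone 3.19% of all tested probes rose. Of the lists, 0 of 5 ligands, 2 of 21 signalling genes, 8 of 18 platelet receptors and 5 of 18 transcription factors did. In the labelled males 0 of any list passed, as did 0 of all tested probes.

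**Figure D5:**
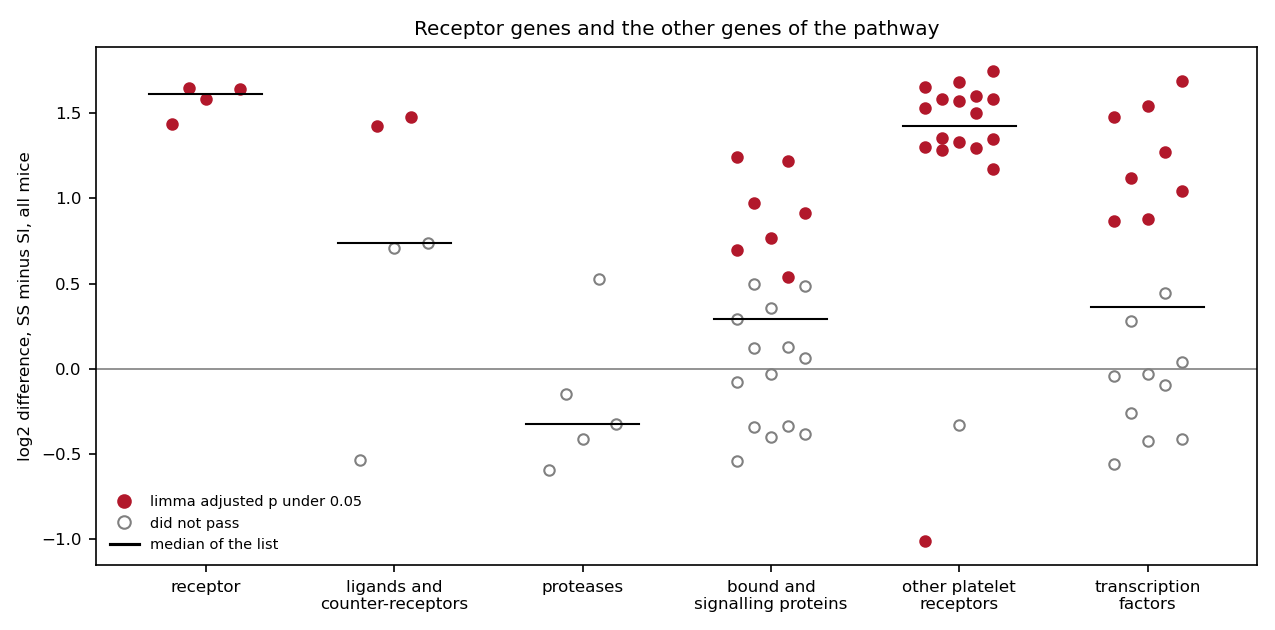
Log2 difference, SS minus SI over all mice (vertical axis), of each tested gene in 6 lists, with filled points for a limma adjusted p under 0.05 and a line at the median of the list. The receptor genes lie at 1.44 to 1.65, with the other platelet receptors around a median of 1.43 and the other lists nearer to 0.

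Markers of the other cells in blood were read beside the receptor genes, and their part in the receptor difference was not tested. Over all mice 7.98% of all tested probes passed. Among 12 neutrophil, 7 monocyte, 7 B cell, 7 T cell, 6 NK cell and 7 red cell genes, 0 did. Their medians were, in that order, -0.84, -0.39, 0.02, -0.64, -0.65 and -0.19. In the labelled females, where 0.816% of all tested probes fell, 7 of the 12 neutrophil markers did, with a median of -2.18. Their mean level was 0.15 to 0.62 in SS against 2.65 to 3.59 in SI labelled females, and 1.14 to 1.44 in SS against 0.16 to 0.94 in SI labelled males. None of the 12 passed in labelled males, where their median was 0.29. Red cell markers had a mean level of 2.78 to 3.64 in SS against 4.15 to 4.91 in SI labelled females, and of 2.69 to 4.76 in SS against 2.59 to 5.96 in SI labelled males. Of 10 endothelial markers, which bear on Vwf since endothelium also makes it, 8 were too dim to be tested, among them Cdh5 and Tek. Of the other 2, Kdr had -0.08. Tie1, also made in megakaryocytes, was well above background on 2 of 4 SS and 1 of 4 SI labelled male arrays, and on 4 of 4 SS and 0 of 2 SI labelled female arrays, so no difference is given for it.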

How the data were processed

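The authors deposited 1 scanner file per array, with intensity values and spot flags, and a table of log2 values. Per the file headers the scans were read with Agilent Feature Extraction 10.7.3.1, whereas the submitters' processing notes name version 9.1. Per the file headers, the deposited intensity used here is background-corrected. For the authors' log2 table, no normalization is stated in those sources.

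Of 55681 non-control probes, 31063 had a RefSeq-type identifier and 26425 matched a symbol in the RefSeq table. Outlier spots were left out, and no spot was saturated. Each array was scaled, as log2 intensity, to its own 75th percentile over 14522 probes that were well above background everywhere. Probes reaching that state on 6 or more of the 14 arrays, 24033 in number, were tested with limma 3.58.1 in R 4.3.3, with sex label (slide) and stress group as terms or with 4 groups, and adjusted by the Benjamini-Hochberg method over all tested probes at 0.05. A gene was represented by its tested probe of highest mean signal. The number of arrays limits the precision. Single genes, and differences between genes on an array, were tested by exact permutation of SS and SI within slides. Other scalings, background corrections, filters, terms and left-out mice were tried as alternatives. The fit was tested on simulated data.

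The 4 genes and all gene lists were chosen with earlier results of these data known. Named from each list were up to 4 members of lowest p over all mice and any that passed in the other direction. Other named list members, and the sequence words, were chosen after their values were seen. A shared litter or cage is not mentioned in the labels.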

Additional observations from a re-analysis of the deposited data

How the results depend on the processing

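Over all mice the 4 receptor genes kept their direction and passed in limma under every alternative and without any single mouse. With 1 mouse left out the ranges were 1.41 to 1.83 (Gp1ba), 1.37 to 1.79 (Gp1bb), 1.24 to 1.63 (Gp9) and 1.42 to 1.83 (Gp5). The exact test was run under 6 of the 12 alternatives and without each mouse in turn. All 4 genes had an exact p under 0.05 there, with the same ranges. The lowest estimates, 0.92, 0.81, 0.83 and 0.86, came from the deposited log2 table. The count of probes called over all mice, 1918, became 1245 with normexp, 1125 with no filter on dim probes, 10656 with array weights, 1147 without a slide term, and 1488 to 3864 with 1 mouse left out, highest without SI labelled male 4. In labelled males the count of 0 became 2 with the percentile over all probes, 1 with the median, 2 with quantile normalization, 174 in the deposited table, 14038 with array weights and 0 to 9424 with 1 mouse left out, again highest without SI labelled male 4. With array weights the 4 genes passed in labelled males at 1.60, 1.75, 1.51 and 1.73, and with 1 mouse left out they ranged from 0.96 to 1.70 (Gp1ba), 1.04 to 1.79 (Gp1bb), 0.86 to 1.54 (Gp9) and 1.06 to 1.79 (Gp5).
In labelled females the count of 962 became 414 with normexp, 461 in the deposited table, 52 with no filter, 543 with a term for array row, and 43 to 1919 with 1 mouse left out, lowest without SS labelled female 23. The calls there were lost for Gp1bb, Gp9 and Gp5 with the median (1.82, 1.75, 1.91), for all 4 genes in the deposited table (1.06, 0.88, 1.15, 0.95), with no filter and with the row term (1.99, 1.80, 1.73 and 1.88 in both), and for Gp9 with the mean over probes (1.73). They were also lost without 9 to 12 of the 14 mice in turn, at 1.86 to 2.06 (Gp1ba), 1.71 to 1.86 (Gp1bb), 1.59 to 1.86 (Gp9) and 1.75 to 1.95 (Gp5). The count for the difference between slides, 11, became 17 with quantile normalization, 36 in the deposited table, 2394 with array weights and 1 to 664 with 1 mouse left out. There Gp1bb turned to -0.041 with array weights.
Relative to other platelet genes, Gp9 turned to -0.020 with quantile normalization and ranged from -0.025 to 0.043 with 1 mouse left out, and Gp1bb passed with array weights (0.30). With the exact test added after seeing the data, Gp1ba (0.22), Gp1bb (0.16) and Gp5 (0.22) had p under 0.05. The count of 20687 became 11486 in the deposited table, 47738 with no filter and 13407 with only probes detected on all arrays. Among pairs, Gp1ba minus Gp5 turned to -0.0037 with normexp and ranged from -0.016 to 0.069 with 1 mouse left out, and Gp1bb minus Gp9 turned to -0.025 in the deposited table. The cause of these changes was not tested. No paired analysis was possible because the groups share no mouse numbers.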
